A study of Mus musculus with 20 samples.

Results

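Messenger RNA levels were measured in the visceral adipose tissue of C57bl/6J male mice of the third generation of 2 breeding lineages, on 1-colour expression arrays with 60-base probes. The Ref and HFoleic groups came from the control lineage, which received high-oleic sunflower oil over the generations, and the HFepa group came from a lineage that received fish oil rich in eicosapentaenoic acid (EPA). HFoleic and HFepa mice were given a high-fat, high-sucrose diet, and Ref mice a low-fat diet. The tissue was the epididymal fat pad, and each of the 20 arrays held the RNA of 1 mouse: 6 Ref, 6 HFoleic and 8 HFepa. The HFepa and HFoleic groups thus differed in lineage supplement, and the HFoleic and Ref groups in the diet of the challenge. The genes described here were the splicing factors and RNA-binding motif genes whose array symbol begins with Clk1 to Clk4, Srsf, Hnrnp, Rbm or Sf3a or Sf3b. The rule found 83 genes, and 81 of them, of 25618 genes tested on the arrays, had a probe well above background on at least 6 arrays. Rbm11 and Rbm46os did not. All 8 adipocyte markers examined were well above background on all 20 arrays. The families held 4 Clk, 11 Srsf, 20 Hnrnp, 37 Rbm and 9 Sf3 genes. A gene is given by its brightest probe as the log2 of the quantile-normalized median signal, so that a difference of 1 is a doubling, and levels were compared within a probe only.

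Most mammalian genes are transcribed with introns that the spliceosome cuts out. SR proteins (Srsf genes) bind exons and help the spliceosome find nearby splice sites, and heterogeneous nuclear ribonucleoproteins (Hnrnp genes) coat the nascent transcript and often act in the opposite direction. The CDC-like kinases (Clk genes) phosphorylate SR proteins in the nucleus and so set where and how strongly these act. Sf3a and Sf3b subunits are parts of the U2 particle that recognises the branch point, and the Rbm genes are a mixed group named for their RNA recognition motifs. Many SR protein and Hnrnp genes, and Clk1 and Clk4, also give rise to transcripts that keep an intron or carry a premature stop and are held in the nucleus or degraded.

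Because several of these genes make more than 1 transcript, the letters of some of their probes are shown first. In each, capitals mark every triplet TAA, TAG or TGA, the letters of a stop codon, in any frame. Probe positions are those of the array files, on build mm9. For Clk1 (chr1:58473928-58473987, minus strand) and Clk4 (chr11:51088746-51088805, plus strand), the probe printed is not the brightest one, by which the gene is given below. For Srsf5 (chr12:82050878-82050937, plus strand) it is the brightest probe. All 3 belong to RefSeq mRNAs and leave at least 1 frame free of stops.
Clk1: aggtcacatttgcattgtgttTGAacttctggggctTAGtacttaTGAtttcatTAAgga
Clk4: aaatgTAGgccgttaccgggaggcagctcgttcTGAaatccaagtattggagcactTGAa
Srsf5: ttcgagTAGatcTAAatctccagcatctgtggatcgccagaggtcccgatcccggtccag
All 3 of these probes were lower in HFoleic than in Ref mice. The next 2 pairs are shown because probes of the same gene gave unlike results. For Rbm26, the probe of the mRNA (chr14:105527836-105529458, minus strand, whose span exceeds its length, as with letters joined over a splice junction) has 2 open frames. The brightest probe was designed on a GenBank cDNA (chr14:105515440-105515499, minus strand), with a stop in every frame.
Rbm26 mRNA: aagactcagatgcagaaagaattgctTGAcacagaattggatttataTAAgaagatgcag
Rbm26 cDNA: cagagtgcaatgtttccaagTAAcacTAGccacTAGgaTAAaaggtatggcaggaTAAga
For Hnrnpu, 1 probe of the mRNA (chr1:180262255-180262314, minus strand) has 1 open frame, and the brightest probe was designed on a RefSeq predicted noncoding transcript (chr1:180251299-180251358, minus strand) and has none.
Hnrnpu mRNA: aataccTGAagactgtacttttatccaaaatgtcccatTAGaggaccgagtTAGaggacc
Hnrnpu noncoding: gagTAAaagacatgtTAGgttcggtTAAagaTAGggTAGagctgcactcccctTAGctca
Over the genes described, 132 of the 184 tested probes were assigned to a RefSeq mRNA, 38 to an Ensembl transcript, 8 to a GenBank cDNA and 6 to a RefSeq predicted or noncoding transcript. A stop in every frame was found in 16 of the 132 mRNA probes and in 14 of the 38 Ensembl probes. Such stops thus do not by themselves mark a noncoding transcript. The brightest probe belonged to an mRNA in 77 of the 81 genes, the others being Hnrnpu, Rbm26, Rbm45 and Rbm3os, the last an antisense gene.

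The high-fat diet in the oleic lineage was accompanied by lower signals of many splicing regulators. In HFoleic vs. Ref, 28 of 81 genes were called at an adjusted p under 0.05 (limma, Benjamini-Hochberg over the 39390 tested probes), a share of 34.6%, against 31.8% of all genes tested. Of these, 26 were lower, or 32.1%, against 16.7% of all genes tested (18.7% of the genes well above background on every array), and 2 were higher, or 2.47%, against 15.2%. The share of genes called was thus near that of all genes, whereas the calls fell almost wholly on the lower side. The median log2 fold change was -0.16 over the 81 genes and -0.04 over all genes tested, and 66 of the 81 values were negative. With median centring in place of quantile normalization these medians were -0.12 and -0.08, and 60 values were negative. The size of the shift against all genes thus depended on the normalization. The lower calls comprised 4 of 4 Clk, 5 of 11 Srsf, 6 of 20 Hnrnp, 11 of 37 Rbm and 0 of 9 Sf3 genes. In 8 genes every HFoleic mouse lay below every Ref mouse (7.09% of all genes did so), and in 2 every HFoleic mouse lay above (6.92%). In whole tissue, fewer cells of a type and less RNA per cell cannot be told apart. Macrophage markers moved with the groups: 6 of 9 measured were higher in HFoleic than in Ref, with a mean over the list of 11.53 to 12.03 in Ref and 12.39 to 13.44 in HFoleic mice, and 7 of 8 markers of lipid-associated macrophages were higher, with 9.13 to 10.41 and 12.03 to 13.68. Of 8 progenitor and fibroblast markers 3 were higher. Adipocyte markers averaged 15.58 to 15.86 in Ref and 15.40 to 15.76 in HFoleic mice, with 1 of 8 called higher and 2 lower. The part of these cell types in the results was not tested.

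**Figure D1:**
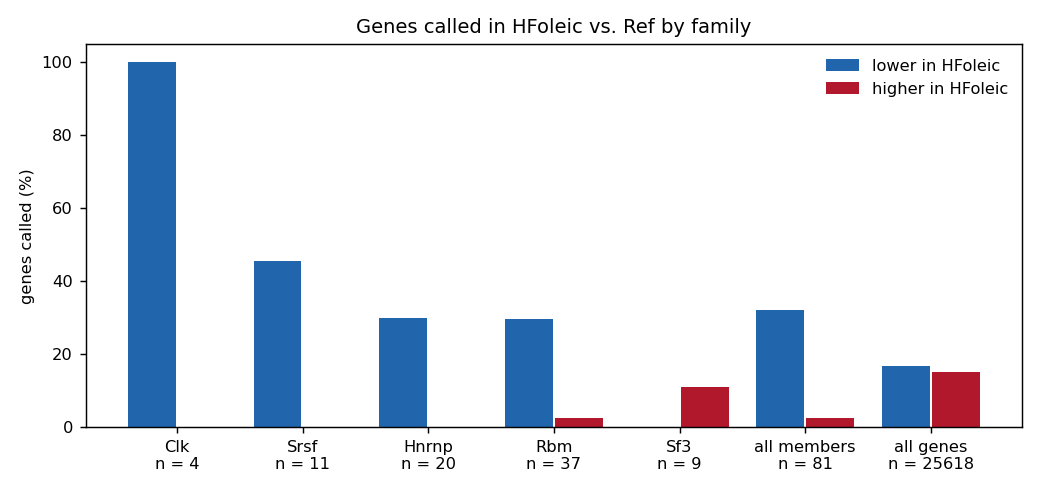
Percentage of genes in each family called lower (blue) and higher (red) in HFoleic than in Ref mice at an adjusted p under 0.05, beside the 81 genes together and all 25618 genes tested; n is the number of genes. Lower calls reached 4 of 4 in the Clk family and 0 of 9 in the Sf3 family, and all genes tested stood at 16.7% lower and 15.2% higher.

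**Figure D2:**
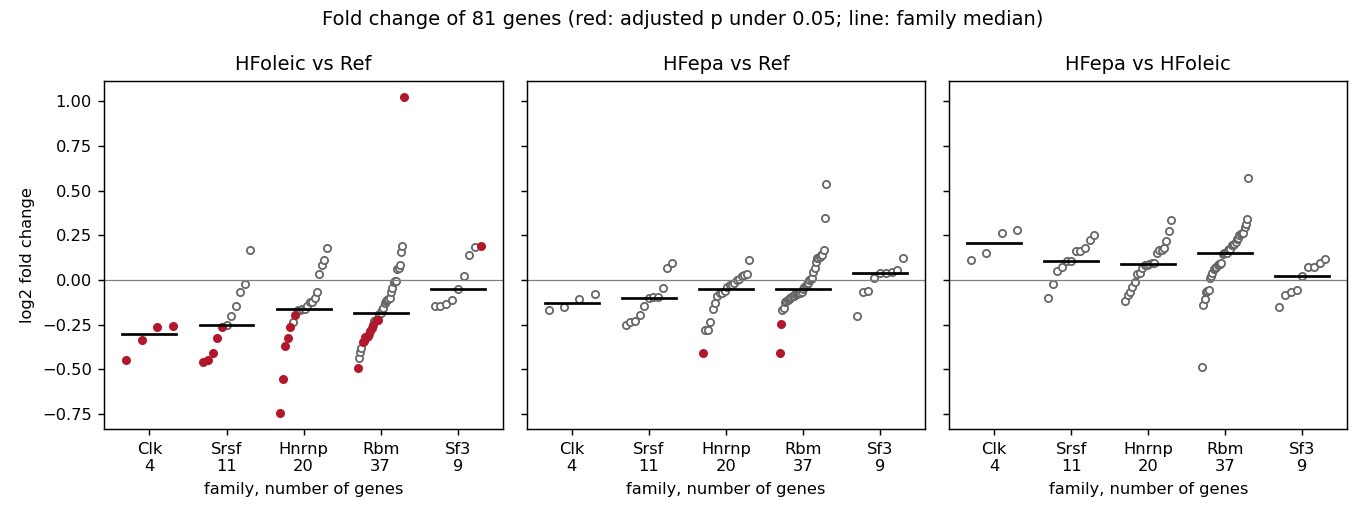
Log2 fold change of each of the 81 genes in the 3 comparisons, by family, with the number of genes under each family name; filled red points had an adjusted p under 0.05, open points did not, and the line is the family median. Most points of the left panel lie below 0, the HFepa vs. Ref panel has 3 red points, and the HFepa vs. HFoleic panel has none.

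The 4 CDC-like kinases were each lower in HFoleic mice. Clk1 had a log2 level of 12.11 at the lowest, 12.22 at the median and 12.28 at the highest in Ref mice, 11.73, 11.85 and 12.15 in HFoleic mice, and 11.95, 12.13 and 12.37 in HFepa mice. The highest HFoleic mouse overlapped the Ref range and the other HFoleic mice lay below it. The log2 fold change of HFoleic vs. Ref was -0.34 ± 0.07 (SE; adjusted p = 0.00218 in limma). Clk2 ranged from 10.89 to 11.21 in Ref mice around a median of 11.04, from 10.74 to 10.82 around 10.79 in HFoleic mice, and from 10.85 to 11.05 around 10.93 in HFepa mice. Here the HFoleic group overlapped neither the Ref nor the HFepa group, and its difference from Ref was -0.26 ± 0.06 (adjusted p = 0.0021, limma). Clk3 had 13.19, 13.30 and 13.45 as lowest, median and highest level in Ref mice, 12.93, 13.01 and 13.23 in HFoleic mice, and 13.00, 13.17 and 13.29 in HFepa mice. Its groups overlapped, with a difference of -0.26 ± 0.07 (adjusted p = 0.00567, limma), and with median centring its call was lost (-0.20, adjusted p = 0.0851). Clk4 ranged from 12.20 to 12.52 in Ref mice with a median of 12.36, from 11.81 to 12.13 in HFoleic mice with a median of 11.88, and from 11.93 to 12.38 in HFepa mice with a median of 12.18. All HFoleic mice lay below all Ref mice, and the difference of -0.45 ± 0.09 (adjusted p = 0.0011, limma) was the largest of the 4. The other mRNA probes of Clk1 and Clk4, whose letters are printed above, gave -0.35 (adjusted p = 0.00213) and -0.46 (adjusted p = 0.00156), and a Clk4 probe on an Ensembl transcript gave -0.27 (adjusted p = 0.0487). The 2 other Clk2 probes gave -0.18 and -0.16 and were not called.

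**Figure D3:**
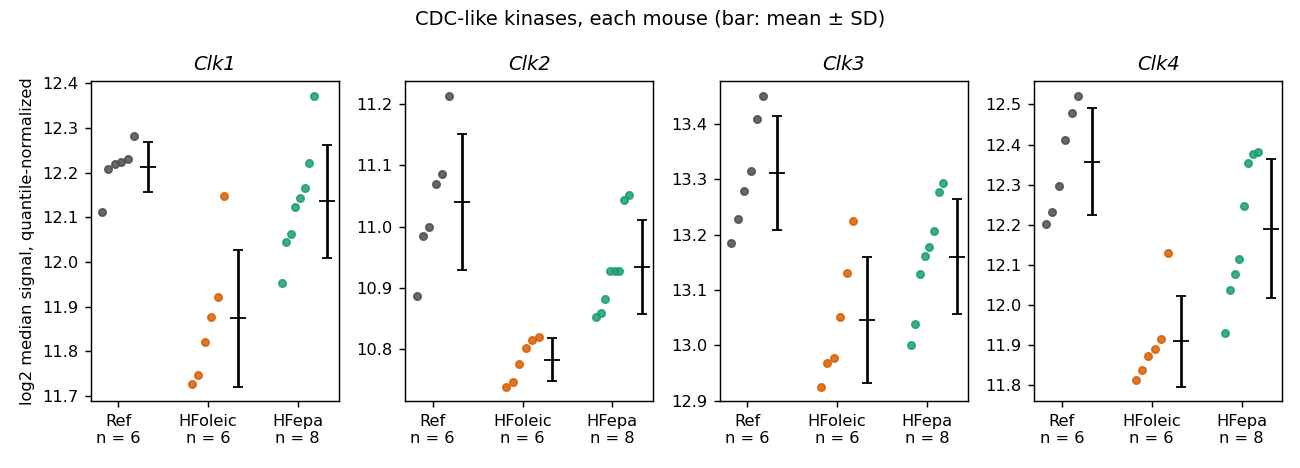
Log2 median signal, quantile-normalized, of Clk1, Clk2, Clk3 and Clk4 in each mouse of the Ref, HFoleic and HFepa groups, with the mean ± SD as a bar to the right of each group; each panel has its own axis, which does not start at 0. The HFoleic mean is the lowest in every panel, without overlap with Ref for Clk2 and Clk4, and the HFepa mean lies between.

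Among the SR proteins, the substrates of these kinases, 5 of 11 genes fell and none rose. Srsf1, an exon-binding regulator, ranged from 12.49 to 12.85 in Ref mice (median 12.68), from 12.05 to 12.67 in HFoleic mice (median 12.16) and from 12.22 to 12.69 in HFepa mice (median 12.48). The HFoleic group reached into the Ref range only through its highest mouse, and the difference was -0.46 ± 0.11 (adjusted p = 0.0032, limma). Srsf4 had levels of 11.34 to 11.78 in Ref mice (median 11.51), 10.86 to 11.30 in HFoleic mice (median 11.09) and 11.06 to 11.56 in HFepa mice (median 11.35). Its HFoleic and Ref groups did not overlap, at -0.45 ± 0.10 (adjusted p = 0.00265). Srsf5 ranged from 13.73 to 14.24 in Ref mice (median 14.02), from 13.50 to 13.89 in HFoleic mice (median 13.54) and from 13.63 to 13.94 in HFepa mice (median 13.75), a difference of -0.41 ± 0.08 (adjusted p = 0.0017). Its 3 probes, on an unbroken stretch and over a junction of the mRNA and on an Ensembl transcript, were all called lower, between -0.40 and -0.53. Srsf11 changed by -0.32 ± 0.07 (adjusted p = 0.00247) and Srsf7 by -0.26 ± 0.09 (adjusted p = 0.0286). Srsf7 lost its call with median centring (-0.21, adjusted p = 0.0855) and on leaving out Ref mouse 3 or 5 or HFoleic mouse 4 or 8 (adjusted p up to 0.0735). The 6 other genes had no call. Srsf9 had every HFoleic mouse (13.52 to 13.70) above every Ref mouse (13.37 to 13.47), with a difference of 0.17 ± 0.07 and an adjusted p of 0.0737 in limma, and was called higher in 5 of 15 alternatives, among them median centring (0.24, adjusted p = 0.035). Srsf6 stood at -0.25, Srsf12 at -0.20, Srsf2 at -0.14, Srsf3 at -0.07 and Srsf10 at -0.02. A second probe of Srsf10 was called higher (0.26, adjusted p = 0.03, limma), and no other probe of these 6 genes was called. Srsf12 was dim, being well above background in 4 of 6 Ref, 1 of 6 HFoleic and 6 of 8 HFepa mice, and with Agilent's processed signal its difference was -0.84 and called.

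In the Hnrnp family 6 of 20 genes fell and none rose. Hnrnpu, a nuclear scaffold protein that binds RNA and DNA, ranged from 13.25 to 13.70 in Ref mice (median 13.53), from 12.51 to 13.09 in HFoleic mice (median 12.73) and from 12.72 to 13.44 in HFepa mice (median 13.14). The Ref and HFoleic groups did not overlap, and the difference of -0.75 ± 0.11 (adjusted p = 0.000385, limma) was the most negative of the 81. This value came from the probe designed on the noncoding transcript, and whether that probe also detects the mRNA was not tested. The 2 mRNA probes of Hnrnpu gave -0.27 (adjusted p = 0.0141) and -0.24 (adjusted p = 0.148). Hnrnph3 ranged from 12.57 to 12.98 in Ref mice (median 12.78), from 11.87 to 12.74 in HFoleic mice (median 12.18) and from 12.17 to 12.79 in HFepa mice (median 12.54), with overlap and a difference of -0.55 ± 0.13 (adjusted p = 0.00391). Hnrnpd, also known as AUF1, which binds AU-rich elements of unstable mRNAs, did not overlap between Ref (11.75 to 12.18) and HFoleic mice (11.41 to 11.65), at -0.37 ± 0.08 (adjusted p = 0.00229). Its relative Hnrnpdl changed by -0.32, Hnrnpa0 by -0.26 and Hnrnpul2 by -0.20. With median centring the call of Hnrnpa0 was lost (-0.20, adjusted p = 0.0584). Hnrnpul2 lost its call with median centring (adjusted p = 0.141), on leaving out Ref mouse 4, 5 or 6 or HFoleic mouse 1, 4, 5 or 6 (adjusted p up to 0.0838), and with the average of its probes (-0.09), its other mRNA probe standing at 0.01. Hnrnpc and Hnrnph1 stood at -0.13 and -0.16 without a call, and the 20 genes ran from -0.75 to 0.18. Among the genes without a call, a probe other than the brightest was called higher in Hnrnpa3 and lower in Hnrnpa1, Hnrnpl, Hnrnpll and Hnrnpr.

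The Rbm family held 11 lower genes and 1 higher gene among 37. Rbm26 ranged from 11.12 to 11.46 in Ref mice (median 11.30), from 10.70 to 10.92 in HFoleic mice (median 10.78) and from 10.69 to 11.03 in HFepa mice (median 10.89). Neither high-fat group overlapped Ref. The difference was -0.49 ± 0.07 in HFoleic vs. Ref (adjusted p = 0.000379), but it rested on the cDNA probe, and the 3 mRNA probes of Rbm26 gave -0.13, -0.11 and -0.10 with no call. Rbm33 had levels of 10.52 to 10.78 in Ref mice (median 10.66), 10.27 to 10.43 in HFoleic mice (median 10.33) and 10.28 to 10.52 in HFepa mice (median 10.42), without overlap of Ref and HFoleic, at -0.31 ± 0.06 (adjusted p = 0.000685). Rbm17, a spliceosome component that contacts the 3′ splice site machinery, changed by -0.34 ± 0.06 (adjusted p = 0.00097). Rbm5 and Rbm10, related regulators of alternative exons, changed by -0.32 and -0.25, and Rbm15, which brings the m6A methyltransferase complex to its targets, by -0.29. Rbm10 lost its call with median centring (-0.20, adjusted p = 0.0636). A second probe of Rbm15, on an Ensembl transcript, gave 0.13 (adjusted p = 0.167), and the average of its probes, -0.08, was not called. The other lower genes, named after their values were seen, were Rbm4b, Rbm48, Rbm39, Rbm7 and Rbm6, between -0.34 and -0.22. On leaving out each of the 20 mice in turn, Rbm48 kept its call in 8 fits and Rbm6 in 10. Rbm28, a nucleolar protein tied to spliceosomal small ribonucleoproteins, ran the other way: it ranged from 12.03 to 12.79 in Ref mice (median 12.18), from 13.01 to 13.75 in HFoleic mice (median 13.28) and from 12.29 to 13.17 in HFepa mice (median 12.87). Ref and HFoleic did not overlap, at 1.03 ± 0.16 (adjusted p = 0.000471), yet another mRNA probe of Rbm28 gave 0.24 (adjusted p = 0.0674) and an Ensembl probe -0.12.

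None of the 9 Sf3 subunits was called lower, and the difference from the other families was not tested. Sf3b5 rose by 0.19 ± 0.06 (adjusted p = 0.015), from 13.05 to 13.17 in Ref mice to 13.16 to 13.39 in HFoleic mice, with overlapping ranges. The other genes lay between -0.15 and 0.19: Sf3b4 at 0.19, Sf3b6 at 0.14 and Sf3a1 at 0.02 on the higher side, and Sf3b1 at -0.05, Sf3a3 at -0.11, Sf3b3 at -0.14, Sf3b2 at -0.14 and Sf3a2 at -0.15 on the lower. A non-mRNA probe of Sf3b3 (-0.48, adjusted p = 0.000667) and one of Sf3a3 (-0.35, adjusted p = 0.00299) were called lower where their mRNA probes were not.

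Lower calls were also counted by the kind of transcript to which the array design assigns each probe. Whether a probe also detects other transcripts of its gene was not tested. In HFoleic vs. Ref, 34 of the 132 mRNA probes were lower (25.8%, against 13.9% of the other mRNA probes on the array) and 18 of the 38 Ensembl transcript probes (47.4%, against 16.5%), 2 of 8 GenBank cDNA probes (25%, against 22%) and 3 of 6 predicted or noncoding RefSeq probes (50%, against 19.4%). The median log2 fold change was -0.13 over these mRNA probes, against 0 over the other mRNA probes on the array. Over these Ensembl probes it was -0.24, against -0.06 over the other Ensembl probes. Probes of a gene share their tissue samples and often their transcripts and are not replicates, and no test was made between the classes. Among 55 genes with several tested probes, the probes of 35 shared a sign. Hnrnpr and Hnrnpa1 were picked as examples for their unlike probes. Hnrnpr, with 7 probes, ranged from 0.04 to -0.86, the 2 most negative, -0.86 (adjusted p = 0.000732) and -0.70 (adjusted p = 0.000312), being on 1 Ensembl transcript, and its brightest probe gave -0.23 without a call. In Clk4 the order was the other way, with its Ensembl probe at -0.27 and its mRNA probes at -0.45 and -0.46. Hnrnpa1 gave -0.59 (adjusted p = 0.000922) on a noncoding RefSeq transcript, -0.33 (adjusted p = 0.00473) on 1 mRNA and -0.16 (adjusted p = 0.1) on another. Rbm18 alone had calls in opposite directions. A probe over a splice junction of its mRNA (chr2:35976403-35978415, minus strand) was higher in HFoleic at 0.22 (adjusted p = 0.0192), and a probe on an Ensembl transcript (chr2:35981856-35981915, minus strand) was lower at -0.29 (adjusted p = 0.00481).
Rbm18 mRNA: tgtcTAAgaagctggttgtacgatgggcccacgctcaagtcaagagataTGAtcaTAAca
Rbm18 Ensembl: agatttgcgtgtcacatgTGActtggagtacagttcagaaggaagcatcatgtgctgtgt
When each gene was represented by its brightest mRNA probe, an alternative chosen after seeing these values, 25 of 80 genes were lower and 2 higher in HFoleic vs. Ref, or 31.2% and 2.5%, against 15.6% and 19.8% of 15997 genes, and Rbm26 lost its call.

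**Figure D4:**
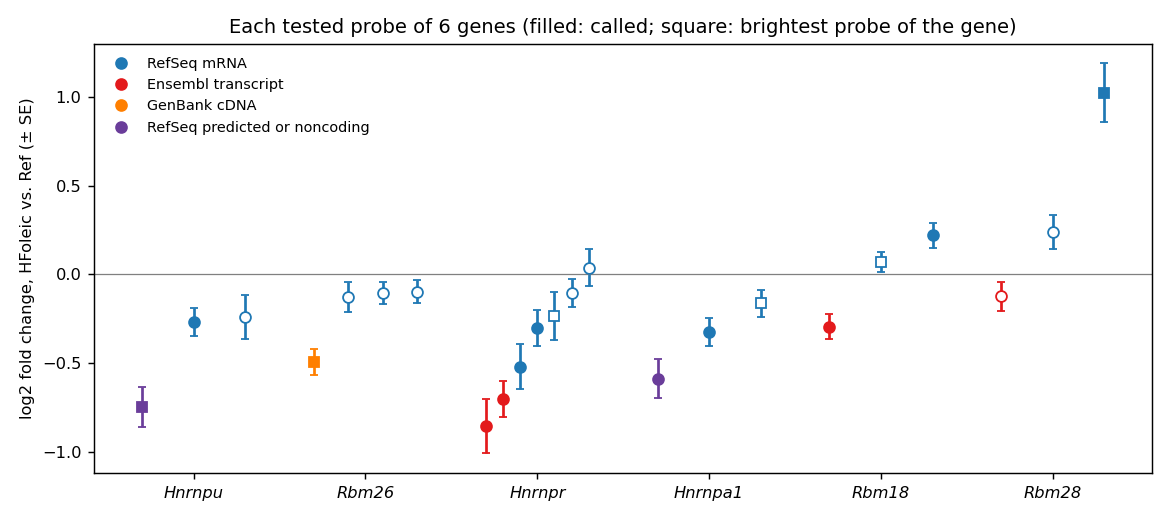
Log2 fold change of HFoleic vs. Ref (± SE) for every tested probe of 6 genes, coloured by the kind of transcript the array design assigns to the probe; filled symbols had an adjusted p under 0.05 and squares are the brightest probe of the gene. In each of the 6 genes the lowest point is a probe assigned to a transcript other than a RefSeq mRNA. The 6 genes are picked examples and do not stand for the others.

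In the EPA lineage under the same high-fat diet, few of these genes were called against Ref. In HFepa vs. Ref 3 of 81 genes were lower, or 3.7%, against 1.42% of all genes tested (2.46% called in either direction), and none was higher. They were Rbm26 at -0.41 ± 0.07 (adjusted p = 0.0146, limma), Rbm33 at -0.25 ± 0.05 (adjusted p = 0.0247) and Hnrnpu at -0.41 ± 0.11 (adjusted p = 0.046). Hnrnpu kept its call in 5 of the 20 fits that left out 1 mouse and in 7 of 15 alternatives. Rbm33 lost its call on leaving out Ref mouse 3, 4 or 5 or HFepa mouse 6, and kept it in 11 of 15 alternatives, and Rbm26 kept its call without any 1 mouse and in 12 of 15 alternatives. Only Rbm26 separated the groups without overlap, and 0.671% of all genes tested lay below Ref in this way. On mRNA probes Rbm33 alone was called (1.25% of 80 genes, against 1.06% lower of all genes on such probes), while Rbm26 stood at 0.01 and Hnrnpu at -0.11. Hnrnpd (-0.28, adjusted p = 0.0519) and Srsf11 (-0.25, adjusted p = 0.0511) missed the threshold, and the Clk genes ran from -0.17 to -0.08. The median over the 81 genes was -0.06, against -0.02 over all genes (-0.05 and -0.04 with median centring). This comparison shares its Ref mice with HFoleic vs. Ref.

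The direct comparison of the lineages, HFepa vs. HFoleic, called none of the 81 genes and none of the 25618 genes at their brightest probe (0%). At an unadjusted p under 0.05 there were 26 of the 81, with 25 higher in HFepa and 1 lower, against 20.8% of all genes tested in either direction and 10.8% on the higher side. The median was 0.10 over the 81 genes and 0.01 over all genes (0.07 and 0.03 with median centring). Clk1 stood at 0.26, with a 95% interval of 0.12 to 0.40 (adjusted p = 0.117), Clk4 at 0.28 (adjusted p = 0.12), Clk2 at 0.15 (adjusted p = 0.137) and Clk3 at 0.11 (adjusted p = 0.308). For Clk2 all HFepa mice lay above all HFoleic mice, as for 0.152% of all genes tested. Rbm5 stood at 0.25, Rbm15 at 0.26, Rbm12b1 at 0.30, Rbm12b2 at 0.23, Hnrnpu at 0.34 and Rbm28 at -0.49, none of them called. With slide as a block, 5 of the 81 genes were called, Clk1 at 0.28 (adjusted p = 0.038), Clk4 at 0.31 (adjusted p = 0.0383), Rbm5 and Rbm15 higher and Rbm28 lower. In that fit 432 of all 25618 genes were called higher and 379 lower. Without HFoleic mouse 1 there were 8 of the 81, with 623 higher and 493 lower over all genes. Without HFepa mouse 1 there were 6, with 793 higher and 1183 lower over all genes. Genes outside the 81 were thus called in these fits too. In the 26 genes lower and the 2 higher in HFoleic vs. Ref, the HFepa mean lay between those of Ref and HFoleic, as it did in 30 of the 53 others. The position follows in part from the choice of genes by their HFoleic and Ref means, so it is a description.

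The mice within a group also differed. The mean of the 4 Clk genes was 12.15 to 12.31 in Ref, 11.80 to 12.08 in HFoleic and 12.02 to 12.23 in HFepa mice. Lipid-associated macrophage markers spread from 9.66 to 14.11 across the HFepa mice. The 2 HFepa mice with the highest marker means, mouse 1 at 14.11 and mouse 6 at 13.26, had Clk means of 12.03 and 12.02. Mouse 8, with a marker mean of 10.61, had the highest Clk mean of the group, 12.23, but mouse 2, with a marker mean of 10.88, had a Clk mean of 12.02, as low as that of mouse 6. Mouse 3, with the lowest marker mean, 9.66, had a Clk mean of 12.12. In HFoleic, mouse 1 had the lowest marker mean, 12.03, and the highest Clk mean, 12.08. As a description over mice that share tissue and arrays, with no p since the score was taken over chosen genes, Pearson's r between the marker mean and the mean of the 81 genes was -0.74 over the 8 HFepa mice (Spearman's rho -0.86), -0.85 over the 6 HFoleic mice (rho -0.71) and -0.55 over the 6 Ref mice (rho -0.37). Without the 2 mice farthest from the median marker mean r was -0.75 in HFepa, -0.91 in HFoleic and 0.09 in Ref, where it thus rested on those 2 mice. For the mean of the 4 Clk genes r was -0.63 in HFepa, -0.82 in HFoleic and -0.70 in Ref mice, and without the 2 farthest mice -0.34, -0.82 and -0.06. The mean of the Sf3 genes gave -0.08, 0.02 and -0.67, and without the 2 farthest mice -0.825, 0.01 and 0.02. The Srsf, Hnrnp and Rbm means had a negative r over all mice of each group. No other marker list was compared in this way.

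**Figure D5:**
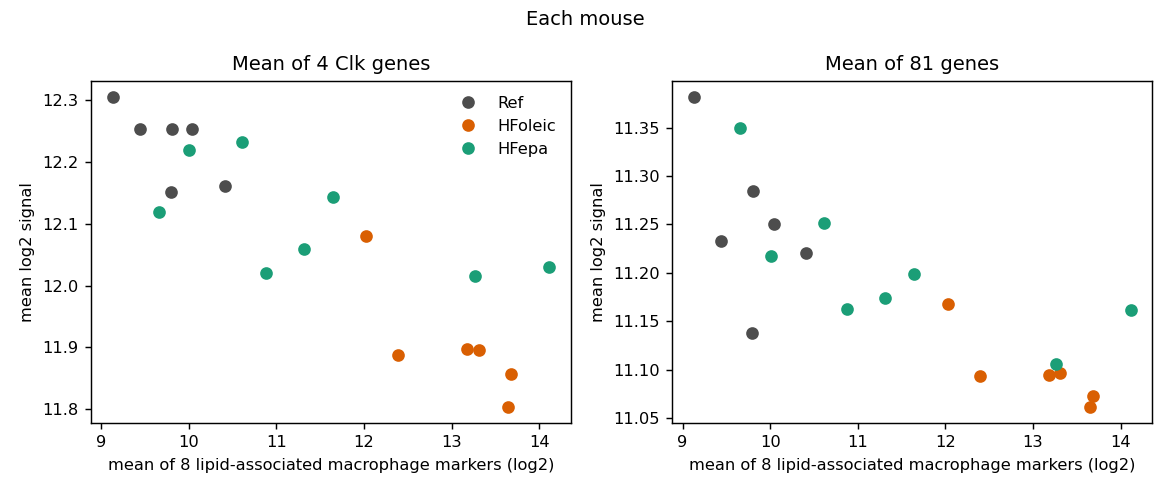
Mean log2 signal of the 4 Clk genes (left) and of the 81 genes (right) against the mean log2 signal of 8 lipid-associated macrophage markers, 1 point for each mouse, coloured by group. HFoleic mice have marker means of 12.03 and above, and those other than mouse 1 have the lowest gene means in both panels, while the HFepa mice run from marker means in the Ref range to above the HFoleic range.

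Other splicing genes were counted in 4 lists of the same pathway, which were not tested against each other. Among 52 other splicing regulators 18 were lower and 4 higher in HFoleic vs. Ref, or 34.6% and 7.69%, against 16.7% and 15.2% of all genes tested, with a median of -0.16. Cirbp, a cold-inducible RNA-binding protein, was lower by -1.01 ± 0.18 (adjusted p = 0.00071) and Srrm1, a splicing coactivator with SR repeats, by -0.50, whereas Mbnl3 rose by 1.07 and Qk by 0.31. Of 58 core spliceosome genes 9 were lower and 9 higher, or 15.5% each, near the shares of all genes, with a median of -0.01. Among them were Sf1 (-0.54) and U2af1 (-0.42), which recognise the branch point and the 3′ splice site, and, on the higher side, Prpf18 (0.37) and Lsm6 (0.24). Of 10 other kinases and import factors for SR proteins 3 were lower (30%), with Prpf4b at -0.45 and Srpk1 at -0.29, and of 14 exon junction and decay genes 7 were lower (50%), with Rnps1 at -0.32 and Smg6 at -0.29, and none in either list was higher. In HFepa vs. Ref, 5 genes of these lists were called, which is 3.45% of the core list, 5.77% of the other regulators and none of the rest, against 2.46% of all genes tested: Cirbp (-0.72) and Ptbp2 (-0.35) lower, and Tardbp (0.32), Lsm3 (0.26) and Lsm6 (0.21) higher.

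Since the Clk genes were lower together, the sequences before their start sites were compared. RefSeq promoters (build GRCm38.p6, from 250 bases before to 50 after the start) were held for 68 of the 81 genes, Clk1 not among them. On either strand, 5 motifs were searched: the cyclic AMP response element TGACGTCA, the E-box CACGTG, the ETS motif CCGGAAG, the CCAAT box and the STAT motif TTCNNNGAA. None of these 5 was in the windows of Clk2, Clk3 and Clk4 together. The 250 bases before each start are printed with the motifs in capitals: CACGTG and CCAAT for Clk2 (chr3:89164545-89164794, plus strand), CCGGAAG for Clk3 (chr9:57765115-57765364, minus strand) and TGACGTCA for Clk4 (chr11:51262864-51263113, plus strand).
Clk2: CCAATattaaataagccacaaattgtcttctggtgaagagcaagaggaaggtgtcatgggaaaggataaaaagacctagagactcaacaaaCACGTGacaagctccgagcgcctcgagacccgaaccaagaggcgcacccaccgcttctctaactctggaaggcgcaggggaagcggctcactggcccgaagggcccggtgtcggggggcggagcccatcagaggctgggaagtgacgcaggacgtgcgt
Clk3: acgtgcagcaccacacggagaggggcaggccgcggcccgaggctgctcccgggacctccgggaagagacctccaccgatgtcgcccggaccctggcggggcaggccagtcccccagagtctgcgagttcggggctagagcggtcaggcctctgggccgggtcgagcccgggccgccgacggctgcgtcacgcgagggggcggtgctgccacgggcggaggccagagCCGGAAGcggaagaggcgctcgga
Clk4: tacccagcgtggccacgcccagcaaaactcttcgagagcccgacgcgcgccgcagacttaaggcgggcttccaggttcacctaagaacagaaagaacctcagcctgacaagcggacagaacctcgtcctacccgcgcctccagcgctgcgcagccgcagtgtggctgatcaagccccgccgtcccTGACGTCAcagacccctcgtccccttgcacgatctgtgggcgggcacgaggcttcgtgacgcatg
TGACGTCA was in 1 of the 68 promoters (Clk4) and in 2.03% of 27025 genes' promoters. CCGGAAG was in 19 of 68 (27.9%) against 9.93% of all genes, with 6 of the 24 lower genes and 13 of the 44 others. CACGTG was in 11 of 68 (16.2%) against 8.09%, with 2 of the 24 lower genes and 9 of the 44 others. CCAAT was in 48.5% of the 68 against 41.1% and TTCNNNGAA in 10.3% against 9.55%. A match describes the letters and is not a measured binding site.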

How the data were processed

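RNA from 20 mice was hybridized to 1-colour arrays on 3 slides. The authors deposited Agilent Feature Extraction 10.10.1.1 output, whose median signal is a linear intensity per spot and not normalized, and a value table on a log2 scale, used as an alternative only. The authors had kept RNA above an integrity limit. Here the log2 median signal was quantile-normalized over non-control probes well above background on at least 6 arrays (39390 probes). Spots marked as outliers were left out (24 missing values). Groups were compared with lmFit and eBayes (limma 3.58.1, R 4.3.3), 1 mean per group over all arrays, and Benjamini-Hochberg adjustment over all tested probes with a threshold of 0.05. A gene was called by its brightest tested probe. Between 66.06% and 71.88% of spots were well above background per array and none was saturated, and the number of arrays limits the precision. Macrophage, adipocyte and other marker lists and the pathway lists were described by counts and medians. The genes and lists were chosen with earlier results of these data known. Genes were named by rule: every Clk, Srsf and Sf3 gene, the 5 Hnrnp and 5 Rbm genes with the smallest p in each comparison, genes called with HFepa, genes with opposed probes and, in each pathway list, the 2 with the smallest p in each direction. Outside this rule, Hnrnpr and Hnrnpa1 were picked as examples of genes with unlike probes. Also outside it were the lower Rbm genes that were named after their values were seen. The scripts were tested on simulated data. Exon and UTR positions of probes were not given in the sources used here. Alternatives comprised background correction, normalization, filters, slide or replicate number as a block, array weights, other probes of a gene and each mouse left out.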

Additional observations from a re-analysis of the deposited data

Results flagged for a closer look

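In 10 of 126 groups of levels tested over the named genes, 1 mouse stood apart from the others of its group by Dixon's criterion, which chance meets in about 1 of 20 groups, and all 10 stood on the high side. HFoleic mouse 1 accounted for 5 of them. Its log2 level of Clk4 was 12.13, against 11.81 to 11.92 in the other HFoleic mice, and its level of Srsf5 was 13.89, against 13.50 to 13.56. It also stood apart for Srsf1 at 12.67 (others 12.05 to 12.22), Srsf11 at 12.49 (12.18 to 12.27) and Rbm10 at 11.65 (11.24 to 11.35). This mouse had the lowest lipid-associated macrophage marker mean of its group, and the part of that in its levels was not tested. HFepa mouse 3, with the lowest such mean of its group, stood apart for Srsf6 at 13.39 (12.84 to 13.06) and for Sf3a1 at 10.87 (10.47 to 10.63). The others were Sf3a1 in HFoleic mouse 5 at 10.65 (10.52 to 10.55), Hnrnpd in Ref mouse 5 at 12.18 (11.75 to 11.87) and the dim Srsf12 in Ref mouse 6 at 6.0 (5.54 to 5.67). The calls in HFoleic vs. Ref comprised 28 genes with HFoleic mouse 1 and 28 without it, of which 27 were shared.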

How the results depend on the processing

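In HFoleic vs. Ref the count of genes called stayed within 1.5 times of 28 under every alternative run, and the 28 genes kept their sign in each of them and on each of the 3 slides. Slide 2 held only 1 HFoleic mouse, mouse 4, beside 2 Ref mice, so the sign there rests on that mouse. Leaving out 1 mouse gave 23 (HFoleic mouse 4) to 32 (Ref mouse 7) genes, with 20 (Ref mouse 5) to 30 lower. Median centring gave 22 lower and 3 higher, ending 8 calls (Clk3, Hnrnpa0, Hnrnpul2, Rbm10, Rbm39, Rbm6, Rbm7 and Srsf7), and array weights 31 and 7. Over all 25618 genes, median centring called 4816 lower and 3793 higher, and array weights 5852 and 4847. In HFepa vs. Ref the count of 3 became 1 with median centring, with only the groups compared, with each gene taken as the average of its probes and with RefSeq mRNA probes. With the average of probes none of the 3 genes kept its call, and the 1 call fell on another gene. The count became 5 with the filter for a whole group above background, with array weights and with the probe of the smallest p. Over all genes these fits called 328, 400 and 313 higher and 468, 618 and 472 lower. Leaving out 1 mouse gave 1 (Ref mouse 3, 4 or 5, or HFepa mouse 6) to 9 (Ref mouse 7) genes, and 6 without HFepa mouse 3. Over all 25618 genes there were 619 higher and 586 lower without Ref mouse 7, and 871 and 922 without HFepa mouse 3. In HFepa vs. HFoleic 0 calls became 5 with slide as a block and 9 with array weights, and 0 to 8 on leaving out 1 mouse (8 without HFoleic mouse 1, 6 without HFepa mouse 1). Over all 25618 genes, slide as a block called 432 higher and 379 lower, and array weights 1315 and 1609. Without HFoleic mouse 1 the counts over all genes were 623 and 493, and without HFepa mouse 1 they were 793 and 1183. Rbm26 in HFepa vs. Ref turned from -0.41 to 0.011 on mRNA probes. Rbm18 (0.07 to -0.29) and Srsf10 (-0.02 to 0.26, adjusted p = 0.03) turned in HFoleic vs. Ref with the probe of the smallest p. The cause of these changes was not tested, except that the probe alternatives use other probes. No rule that pairs the mice by replicate number was stated, although the paper matched HFoleic and HFepa mice for body weight. The deviations of 16 same-numbered pairs correlated at a median of -0.08 (-0.59 to 0.56), with 5 above 0.1, against 0.01 for 116 other pairs. So wide a spread over few pairs cannot tell whether the numbers pair the mice. With replicate number as a block, HFoleic vs. Ref had 20 lower and 1 higher, with 7 calls lost (Hnrnpul2, Rbm39, Rbm48, Rbm4b, Rbm7, Sf3b5 and Srsf7), HFepa vs. Ref 0, and HFepa vs. HFoleic 0.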
